A study of Drosophila melanogaster with 3 samples.

Results

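The 7 genes of the Enhancer of split complex that encode basic helix-loop-helix (bHLH) repressors, E(spl)mdelta-HLH, E(spl)mgamma-HLH, E(spl)mbeta-HLH, E(spl)m3-HLH, E(spl)m5-HLH, E(spl)m7-HLH and E(spl)m8-HLH, were examined for binding of Blimp-1. They were chosen as a gene family and taken by name from the annotation, not by a binding threshold, but with earlier results of these data known. They are 7 of 13945 protein-coding genes. Binding was mapped by chromatin immunoprecipitation and sequencing (ChIP-seq) in whole Drosophila melanogaster embryos of 10 to 12 h, in 3 biological replicates of a single group. All 3 came from a transgenic line with GFP fused to the C-terminus of Blimp-1, and per the sample descriptions the tagged protein was captured through GFP, although a separate antibody label names Blimp-1 itself. No other strain, stage or untagged line was compared, and a whole embryo gives no account of which cells carry a peak.

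In background terms, the E(spl) bHLH genes are the classical direct targets of Notch signalling in flies. When Notch is activated, its intracellular part joins the DNA-binding protein Su(H) and switches them on. Their products belong to the Hes family: they bind DNA as dimers, recruit the corepressor Groucho through a short C-terminal tail, and hold down proneural genes, so that cells next to a nerve precursor stay epidermal. Blimp-1, the fly homologue of PRDM1, is a zinc finger repressor known for its roles in the timing of the ecdysone response and in tracheal and cuticle development.

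The results rest on peak lists. The authors deposited 9515 peaks retained after thresholding on the irreproducible discovery rate (IDR), a measure of how well peak ranks repeat between replicates, a pooled list of 30000 peaks and a list of 30000 peaks for each replicate. The rank of a peak is its place by signal value within its own list, rank 1 being the strongest, and the 9515 IDR peaks are those of rank 1 to 9515 in the pooled list. The scale of the signal value is not given in the sources used here, and since no list gives read numbers, sequencing depth is unknown. A summit is the position of highest signal in a peak, TSS is an annotated transcription start site, and positions are 1-based on dm6. Negative distances lie upstream of a gene's start.

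Blimp-1-GFP peaks were dense in the complex but lay unevenly among the bHLH genes. E(spl)m3-HLH, E(spl)mdelta-HLH and E(spl)m7-HLH each had an IDR summit 328 to 408 bp upstream of their TSS. The strongest peak of the whole complex lay just past the 3′ end of E(spl)mgamma-HLH. E(spl)mbeta-HLH had a promoter peak just under the threshold, and the promoters of E(spl)m5-HLH and E(spl)m8-HLH had only weak peaks that were not seen in every replicate.

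The sequences at the strongest of these places are shown first, because they show what the summits do and do not contain. Each is 101 bases of dm6 centred on a summit and is read in the direction of the gene. In the windows of E(spl)m7-HLH (3R:26036605-26036705, + strand), E(spl)m3-HLH (3R:26021365-26021465, + strand) and E(spl)mdelta-HLH (3R:25997243-25997343, + strand), capitals mark unbroken runs of 8 or more A and T. In the window past E(spl)mgamma-HLH (3R:26000889-26000989, + strand), capitals mark 8 bases that differ at 1 position from the Blimp-1 site AGCGAAAG.
E(spl)m7-HLH: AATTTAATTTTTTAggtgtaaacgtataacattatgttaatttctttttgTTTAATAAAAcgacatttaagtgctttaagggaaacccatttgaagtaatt
E(spl)m3-HLH: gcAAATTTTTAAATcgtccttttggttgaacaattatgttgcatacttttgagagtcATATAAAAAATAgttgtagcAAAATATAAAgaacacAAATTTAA
E(spl)mdelta-HLH: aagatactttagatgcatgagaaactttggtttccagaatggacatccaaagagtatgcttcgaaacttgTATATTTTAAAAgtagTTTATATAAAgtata
E(spl)mgamma-HLH: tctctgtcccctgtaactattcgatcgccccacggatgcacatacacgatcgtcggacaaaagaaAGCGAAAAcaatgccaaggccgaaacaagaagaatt

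The complex occupies 3R:25997621-26049911, from E(spl)mdelta-HLH to the end of gro, which encodes Groucho. Between the bHLH genes lie E(spl)malpha-BFM, E(spl)m2-BFM, E(spl)m4-BFM and E(spl)m6-BFM, which encode small Bearded-family proteins known as inhibitors of Neuralized and so of Notch ligand uptake, and Kaz-m1, formerly E(spl)m1. Each bHLH gene is annotated with a single exon and a single TSS, in genes of 769 to 1305 bp. With 1 kb added on both sides, the region of 54291 bp held 16 IDR summits, or 2.95 per 10 kb. Of 2462 consecutive windows of that length over the chromosome arms, 37 (1.50%) held 16 or more, the median window held 3 and 704 held none. All 16 summits were matched within 100 bp in all 3 replicates, and they spanned rank 209 to rank 7204.

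**Figure D1:**
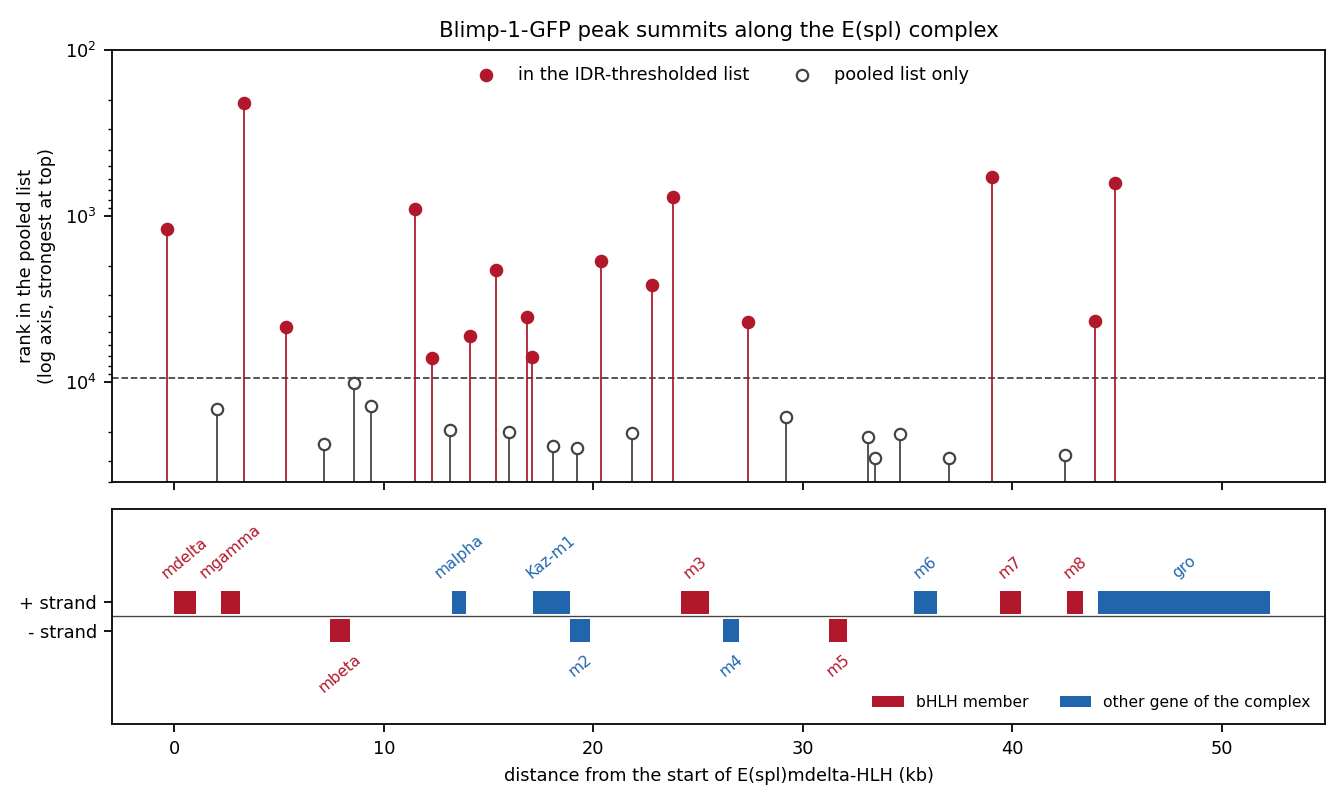
Rank of each peak summit in the pooled list (vertical log axis, strongest at the top) against distance from the start of E(spl)mdelta-HLH in kb, with the genes of the complex drawn below by strand, bHLH genes in red and other genes in blue. Filled points are the 16 IDR summits and open points the 15 summits of the pooled list that fell below the threshold (dashed line, rank 9515). The interval of 11666 bp that holds E(spl)m5-HLH and E(spl)m6-BFM has only open points.

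The summits lay between genes. Of the 16, 15 (93.8%) lay outside every annotated gene, against 32.6% of all 9515 IDR summits, and the exception lay in gro. Annotated genes leave 52.5% of the complex uncovered and 30.7% of the 6 chromosome arms. None of the bHLH genes had an IDR summit within its own body. The widest stretch without an IDR summit ran for 11666 bp, between the summit upstream of E(spl)m4-BFM and the one upstream of E(spl)m7-HLH, and it holds the whole of E(spl)m5-HLH.

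Counted by a summit within 1 kb of the TSS, 3 of the 7 bHLH genes had a proximal IDR peak, and 24.9% of all protein-coding genes did. Each bHLH gene has 1 annotated TSS, and of the 10246 genes with 1 TSS 18.5% had such a peak. Within 2 kb the count was 5 of 7, beside 31.3% of all protein-coding genes. In the 9515 strongest peaks of each replicate the count was 4 of 7 in replicate 1, 4 of 7 in replicate 2 and 3 of 7 in replicate 3, beside 24.4%, 25.9% and 28.2% of all protein-coding genes. The gene that made the difference in replicates 1 and 2 was E(spl)mbeta-HLH. All 3 of the bHLH genes with a proximal IDR summit had it matched within 100 bp in all 3 replicates, and 90.3% of the 3467 genes with such a summit did. In the pooled list all 7 had a summit within 1 kb, beside 38.1% of all protein-coding genes. The genes are neighbours and share chromatin, so these counts are not 7 independent observations, and no test was made over them.

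E(spl)m7-HLH had the promoter-proximal peak of the family with the best rank in the IDR list. Its peak (3R:26036440-26036887) had its summit at position 26036655, 383 bp upstream of the TSS, and was rank 579 in the IDR list. In replicates 1, 2 and 3 it was rank 772, 554 and 420, with signal values of 648, 563 and 804 on the scales of those lists (mean rank 582 ± 178, SD, n = 3). The replicate summits lay within 48 bp of each other. Among the 3467 genes with a proximal IDR peak it was in place 394. It was also the only IDR summit in the complex whose nearest TSS, with noncoding RNA genes included, was that of a bHLH gene.

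E(spl)m3-HLH had a pair of summits upstream. The nearer one lay 408 bp upstream of the TSS in the peak 3R:26021131-26021645. It was rank 764 in the IDR list and rank 724, 1034 and 654 in replicates 1, 2 and 3 (mean 804 ± 202, SD, n = 3), and its summit varied by 15 bp. The farther one, 1386 bp upstream in the peak 3R:26020284-26020622, was rank 2625, and its replicate ranks were 3304, 2684 and 2191 (mean 2726 ± 558, SD, n = 3). The ranks of the nearer peak overlapped those of E(spl)m7-HLH, with E(spl)m3-HLH ahead in replicate 1 and E(spl)m7-HLH in replicates 2 and 3, so these 2 promoters cannot be put in order, while the farther peak was weaker in every replicate. A noncoding RNA gene, lncRNA:CR43644, starts between these summits, and its TSS is closer to each of them (339 and 639 bp) than that of E(spl)m3-HLH.

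E(spl)mdelta-HLH, the first gene of the complex, had a summit 328 bp upstream of its TSS in the peak 3R:25997032-25997451. This peak was rank 1204 in the IDR list and rank 1130, 1436 and 1156 in the replicates (mean 1241 ± 170, SD, n = 3). All 3 of its ranks lay below those of E(spl)m7-HLH and of the nearer E(spl)m3-HLH peak. The summit is shared with a divergent neighbour: it lies 297 bp upstream of CG43116, which makes CG43116 the nearest gene by TSS. A second IDR peak inside CG43116, 1014 bp upstream of E(spl)mdelta-HLH at position 25996607, was rank 851 with replicate ranks 1000, 734 and 799, and fell just outside both the 1 kb limit and the 1 kb margin of the complex.

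The strongest peak in the complex was not at a promoter of the family. It lay at 3R:26000532-26001198, with its summit 1088 bp downstream of the TSS of E(spl)mgamma-HLH and 178 bp past the gene's 3′ end. It was rank 209 in the IDR list and rank 121, 299 and 392 in the replicates (mean 271 ± 138, SD, n = 3), with signal values of 1803, 771 and 835. The replicate ranks did not overlap those of any other peak in the complex, and the summit varied by only 6 bp. With noncoding RNA genes included, the nearest TSS was that of lncRNA:CR45037, whose start lay 262 bp from the summit. At the promoter of E(spl)mgamma-HLH itself, 210 bp upstream of the TSS, the pooled list had a peak of rank 14532. The strongest summit within 1 kb of that TSS was rank 13392, 16374 and 16509 in the replicates, and in replicate 1 it was a different one, 829 bp upstream.

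E(spl)mbeta-HLH sat at the threshold. Its promoter peak, 180 bp upstream of the TSS at 3R:26005993-26006412, was rank 10134 in the pooled list and so outside the 9515. The strongest summit within 1 kb of the TSS was rank 9321, 8754 and 10411 in replicates 1, 2 and 3 (mean 9495 ± 842, SD, n = 3), with replicates 1 and 2 inside a limit of 9515 and replicate 3 outside it. In replicate 2 that summit lay 25 bp upstream, and the one matching the pooled summit was rank 15706. The ranks of the strongest summits did not overlap those of E(spl)mdelta-HLH above it or of E(spl)mgamma-HLH below it. An IDR summit 3048 bp downstream of the TSS, and 2071 bp past the gene's 3′ end, was assigned to E(spl)mbeta-HLH by the nearest coding TSS. It was rank 4666, and rank 3938, 4139 and 7597 in the replicates.

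E(spl)m5-HLH and E(spl)m8-HLH had no IDR summit assigned to them. The nearest IDR summit to the E(spl)m5-HLH TSS was 4746 bp away, and the pooled list had a weak summit 992 bp upstream, of rank 21378. In the replicates the strongest proximal summit of E(spl)m5-HLH was rank 11478 and 29273 in replicates 1 and 2, and replicate 3 had none. The one in replicate 1 was a different summit, 793 bp upstream, and only replicate 2 had a summit within 100 bp of the pooled one. E(spl)m8-HLH had a pooled summit 93 bp upstream of the TSS, of rank 27692, and only replicate 2 listed a proximal summit, of rank 22688. These lists end at 30000 peaks, so a promoter without a peak is below that limit and is not shown to be unbound. The IDR summit nearest to E(spl)m8-HLH, 1354 bp downstream of its TSS, belonged to gro.

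**Figure D2:**
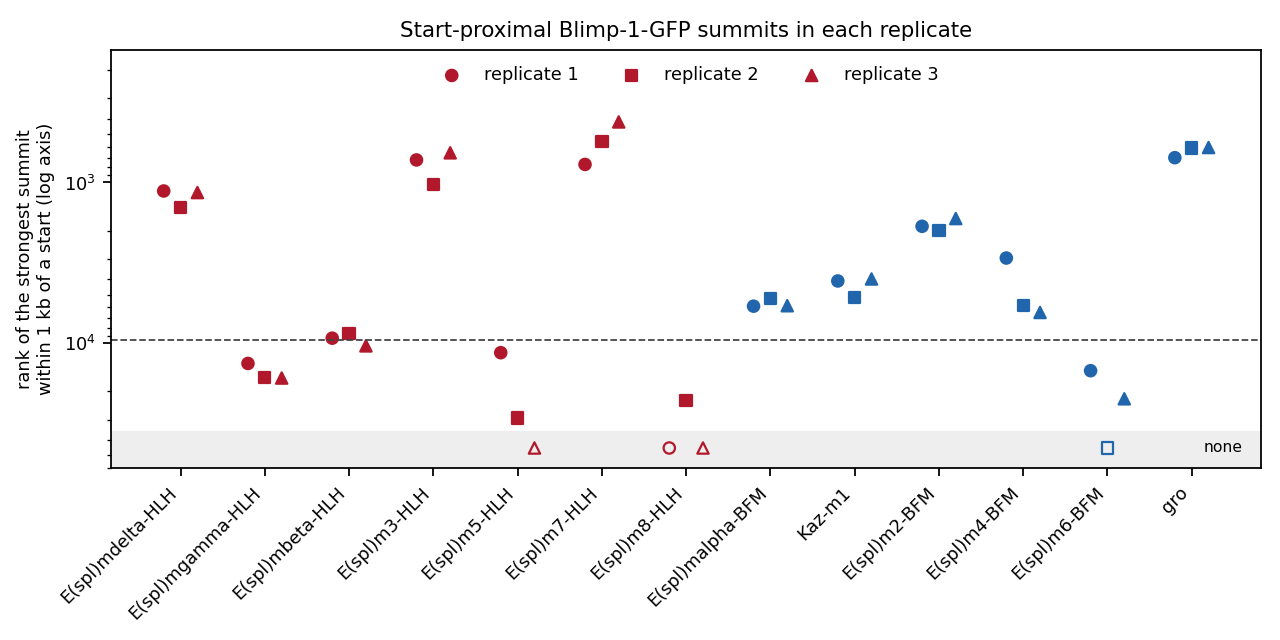
Rank of the strongest summit within 1 kb of a TSS in replicates 1, 2 and 3 (circle, square and triangle; vertical log axis, strongest at the top) for the 7 bHLH genes in red and the 6 other genes of the complex in blue. The dashed line is rank 9515 and the grey band holds replicates with no such summit. The points of E(spl)m3-HLH, E(spl)mdelta-HLH and E(spl)m7-HLH lie between rank 420 and rank 1436, those of E(spl)mbeta-HLH around the line, and those of E(spl)m5-HLH and E(spl)m8-HLH below it.

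By promoter the family thus fell into an order of E(spl)m7-HLH and E(spl)m3-HLH together, then E(spl)mdelta-HLH, E(spl)mbeta-HLH and E(spl)mgamma-HLH, with no overlap of replicate ranks between neighbours after the first pair. E(spl)m5-HLH and E(spl)m8-HLH cannot be placed by 3 values. No test between 2 genes was made. Even an exact permutation test of 3 values against 3, which ignores that both genes were ranked in the same replicates, cannot give a p below 0.1.

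The assignment by nearest coding TSS gave 5 IDR summits to 4 of the 7 genes, E(spl)mgamma-HLH, E(spl)mbeta-HLH and E(spl)m7-HLH with 1 each and E(spl)m3-HLH with 2, beside 28.6% of all protein-coding genes with at least 1. E(spl)mdelta-HLH had none by this rule because of CG43116. When the 6 noncoding RNA genes of the complex and those elsewhere were also counted, 1 summit remained assigned to the family, that of E(spl)m7-HLH.

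The known Blimp-1 site was absent from the IDR summits of the complex. Neither AGTGAAAG nor AGCGAAAG, on either strand, lay within 50 bp of any of the 16, and 6.31% of all IDR summits held such a site, a share too low to read a difference from 0 of 16. It was also in none of the 16 whole peaks. With up to 1 mismatch, 3 of 16 held it, beside 32.5% of all IDR summits. These were the peak past E(spl)mgamma-HLH, whose AGCGAAAA begins 15 bp from the summit, and 2 peaks upstream of E(spl)malpha-BFM.

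The single exact site at a summit of the complex was at a promoter with a weak peak. In E(spl)m8-HLH an AGCGAAAG begins 104 bp upstream of the TSS, 11 bp from the pooled summit of rank 27692. Of the 15 pooled-list summits of the complex below the threshold it was the only 1 with the site. That is near the 6.31% of all IDR summits that held the site, and the share over all pooled summits below the threshold was not counted. In promoters, taken from 250 bp before to 50 bp after the gene's start, the site was in 1 of the 7 bHLH genes, beside 3.13% of all protein-coding genes. Elsewhere the exact site lay 416 and 487 bp downstream of the start of E(spl)m3-HLH, inside the gene, and 1157 bp downstream of that of E(spl)m5-HLH, with no pooled summit within 100 bp. The 250 bases before the start of E(spl)m8-HLH (3R:26039990-26040239, + strand) show how the words lie. From left to right, capitals mark a pair of Su(H) words facing each other, the E-box CAGCTG, the Blimp-1 site and the TATA word.
E(spl)m8-HLH: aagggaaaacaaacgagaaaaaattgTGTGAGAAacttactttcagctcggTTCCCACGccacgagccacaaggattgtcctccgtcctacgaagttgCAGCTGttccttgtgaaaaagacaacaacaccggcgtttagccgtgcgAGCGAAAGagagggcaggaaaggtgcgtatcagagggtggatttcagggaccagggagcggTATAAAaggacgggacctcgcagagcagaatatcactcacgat

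Words of other factors that act on these genes were searched in the same way. Within 50 bp, 0 of the 16 held a Su(H) word (CGTGGGAA, TGTGGGAA, CGTGAGAA or TGTGAGAA), beside 0.757% of all IDR summits. None held a proneural E-box (CAGCTG or CAGGTG, 5.86% of all) or a Hes site (CACGTG or CACGCG, 2.30% of all), and these shares are too low to read a difference from 0 of 16. In the whole peaks a Hes site was in 6 of the 16, beside 11.5% of all IDR peaks, among them the peak past E(spl)mgamma-HLH and those upstream of E(spl)mdelta-HLH and at gro. A proneural E-box was in 2 of the 16 whole peaks, including that of E(spl)m7-HLH, beside 24.7%, a Su(H) word in 2, beside 4.14%, and the Blimp-1 site in 0, beside 12.2%. In the promoters of the 7 bHLH genes, a Su(H) word was in E(spl)m5-HLH and E(spl)m8-HLH (2 of 7, beside 3.19% of all promoters). A proneural E-box was in E(spl)m7-HLH and E(spl)m8-HLH (2 of 7, beside 25.3%), and a Hes site was in E(spl)mdelta-HLH and E(spl)m7-HLH (2 of 7, beside 10.1%). The TATA word TATAAA, on the gene's own strand, was in 5 of 7, beside 32.2% of all promoters, and E(spl)mdelta-HLH and E(spl)mgamma-HLH lacked it. Words were counted on both strands except for TATAAA, and CACGTG and CAGCTG read the same on each.

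A pair of Su(H) words on opposite strands lies near several of the genes. A pair whose first bases were 20 to 30 bp apart lay within 1500 bp of the start of 11 of all 13945 protein-coding genes (0.0789%). Among these were the 5 bHLH genes shown here, E(spl)m4-BFM, and CG43116, whose window reaches the pair of E(spl)mdelta-HLH, whereas E(spl)mbeta-HLH had no such pair. The 5 pairs are shown in the direction of each gene, with the Su(H) words in capitals. They lie at 3R:26036369-26036401 for E(spl)m7-HLH, 3R:25996282-25996312 for E(spl)mdelta-HLH, 3R:25999557-25999589 for E(spl)mgamma-HLH, 3R:26030597-26030634 for E(spl)m5-HLH (− strand) and 3R:26040016-26040048 for E(spl)m8-HLH.
E(spl)m7-HLH: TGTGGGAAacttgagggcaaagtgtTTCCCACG
E(spl)mdelta-HLH: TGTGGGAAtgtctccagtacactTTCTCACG
E(spl)mgamma-HLH: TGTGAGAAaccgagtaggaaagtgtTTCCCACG
E(spl)m5-HLH: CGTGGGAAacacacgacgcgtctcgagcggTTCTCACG
E(spl)m8-HLH: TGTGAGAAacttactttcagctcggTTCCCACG

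The distance from the pair to the nearest IDR summit was 270 bp at E(spl)m7-HLH and 310 bp at E(spl)mdelta-HLH, where the summit was the one of rank 851 inside CG43116. It was 1366 bp at E(spl)mgamma-HLH, 1562 bp at E(spl)m8-HLH and 5626 bp at E(spl)m5-HLH. The pair lay 669 bp upstream of the TSS in E(spl)m7-HLH and 1339 bp in E(spl)mdelta-HLH. It lay 294 bp upstream in E(spl)mgamma-HLH, 224 bp in E(spl)m8-HLH and 899 bp in E(spl)m5-HLH. These distances were taken after the positions had been seen, depend in part on whether a gene has a proximal summit, and were not tested.

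**Figure D3:**
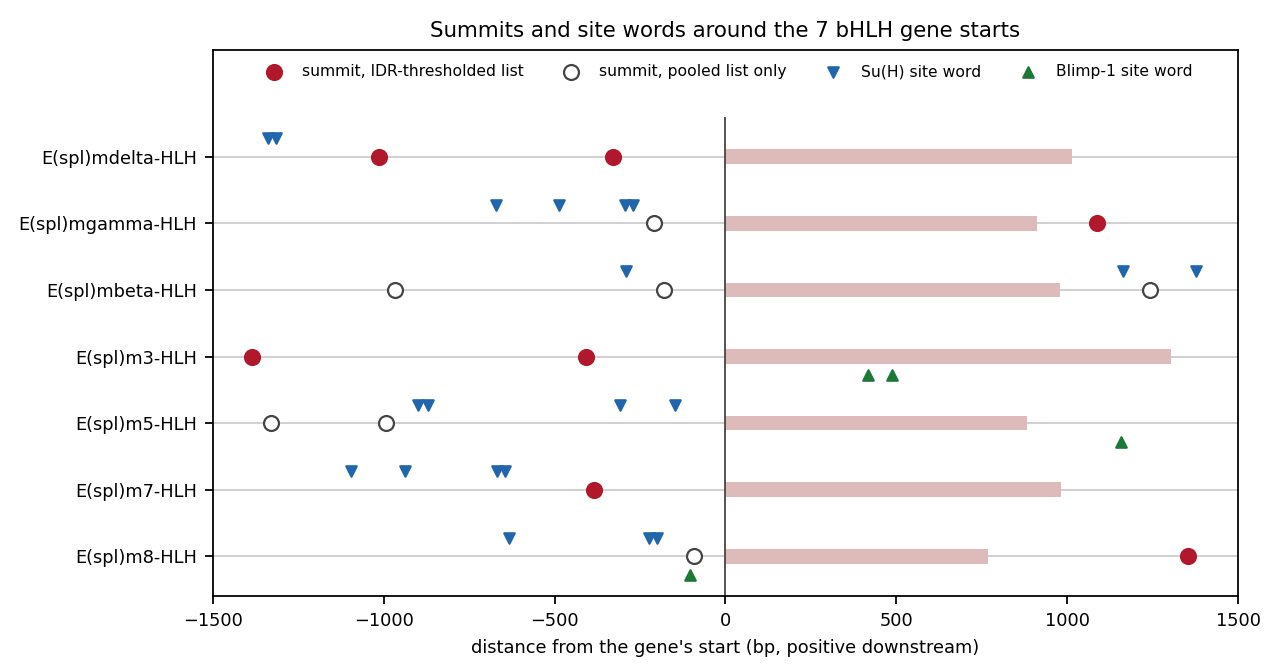
Summits within 1500 bp of the start of each bHLH gene (filled red, IDR list; open, pooled list only), with Su(H) words as blue triangles above each line (not plotted for E(spl)m3-HLH) and Blimp-1 site words as green triangles below it; the horizontal axis is distance from the start in bp and the pale bar is the gene. E(spl)m3-HLH, E(spl)mdelta-HLH and E(spl)m7-HLH have a filled point 328 to 408 bp upstream, and the site word of E(spl)m8-HLH lies beside an open point.

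Base composition varied widely among these summits. The windows of 101 bases had a GC content of 22.8% at E(spl)m7-HLH, 24.8% and 25.7% at E(spl)m3-HLH and 28.7% at E(spl)mdelta-HLH, against a median of 34.7% over all IDR summits. The peak past E(spl)mgamma-HLH had 47.5%, and the one downstream of E(spl)mbeta-HLH 56.4%. Over the 16 summits the median was 28.7%, with a range of 14.9% to 56.4%. Runs of 8 or more A and T were within 50 bp of 12 of the 16 summits, a share near that of all IDR summits (67.5%). The longest run in the window was 14 bases at E(spl)m7-HLH, 12 at the nearer and 16 at the farther summit of E(spl)m3-HLH. At the promoters whose peaks fell below the threshold the GC content was 46.5% at E(spl)mbeta-HLH, 57.4% at E(spl)mgamma-HLH, 49.5% at E(spl)m5-HLH and 55.4% at E(spl)m8-HLH. Whether composition contributed to the rank of these peaks was not tested.

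The remaining genes of the complex also carried proximal IDR summits. They were present at 5 of 6, beside 24.9% of all protein-coding genes, and E(spl)m6-BFM, whose pooled peak was rank 20761, had none. The leading gene was gro, which has 4 annotated TSSs where each bHLH gene has 1, with a summit 132 bp upstream of its nearest TSS that was rank 636 in the IDR list and rank 701, 611 and 606 in the replicates (mean 639 ± 53.5, SD, n = 3), within the range of E(spl)m7-HLH. E(spl)m2-BFM followed with rank 1864, Kaz-m1 with rank 4072, E(spl)m4-BFM with rank 4342 and E(spl)malpha-BFM with rank 5298. The summit of E(spl)malpha-BFM lay 848 bp downstream of the TSS and so past the 3′ end of this gene of 676 bp. A weaker IDR summit, of rank 7204, lay 951 bp upstream of the same TSS. E(spl)malpha-BFM and Kaz-m1 were each the nearest coding gene of 3 IDR summits. In E(spl)m4-BFM replicate 1 stood apart, with rank 2954 against 5843 and 6449 in replicates 2 and 3.

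Beyond the complex, related genes carried peaks in varying degree. Of 6 other Hes family genes, 2 had a proximal IDR summit, beside 24.9% of all protein-coding genes, and so few genes cannot show a difference from that share. hry, the pair-rule repressor gene hairy, had a summit 74 bp downstream of a TSS of rank 792, with replicate ranks of 630, 896 and 922, which overlap those of E(spl)m7-HLH and E(spl)m3-HLH. Sidpn had one of rank 6268, and dpn (deadpan), cwo, Hey and Hesr had none, with pooled peaks of rank 18153 at dpn and 10157 at cwo. Of 4 Bearded-family genes outside the complex, Brd alone had one (rank 4632), a share near the same 24.9%.

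Of 20 Notch signalling genes, 10 had a proximal IDR summit. The 4 strongest were at numb, a Notch inhibitor handed to a single daughter cell (rank 832), aph-1, a subunit of the gamma-secretase that cleaves Notch (1172), fng, a glycosyltransferase that tunes ligand choice (1421), and neur, the ubiquitin ligase Neuralized (2567). The others were O-fut1, which adds fucose to Notch (4841), mam, the coactivator Mastermind (4910), kuz, the Notch protease Kuzbanian (5128), N itself (6056), mib1, a ubiquitin ligase for Notch ligands (7246) and the corepressor gene CtBP (9423), whose summit was not matched in all 3 replicates. The genes of Su(H) and of its antagonist Hairless (H) had no summit within 1 kb in the pooled list either. Within 1 kb the ligand genes Delta and Ser had only pooled peaks of rank 9866 and 15110. Farther out, Delta and Ser were each the nearest coding gene by TSS of 3 IDR summits, and Su(H) and H of none. By that rule 13 of the 20 genes had at least 1 IDR summit, beside 28.6% of all protein-coding genes. Of 10 genes in the proneural list, which also holds da, the partner of proneural proteins, and emc, their inhibitor, l(1)sc alone had a proximal IDR summit (rank 8792, with replicate ranks of 6133, 13435 and 13617). The counts of genes with a proximal IDR summit stand beside the same 24.9% of all protein-coding genes and were not tested against it. They also depend on the number of annotated TSSs, which differs between genes. Among the Notch signalling genes with a proximal IDR summit, mam and CtBP have 3 TSSs and neur, mib1 and numb have 2. Among those without one, Psn and Su(dx) have 3 and Ser has 2.

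**Figure D4:**
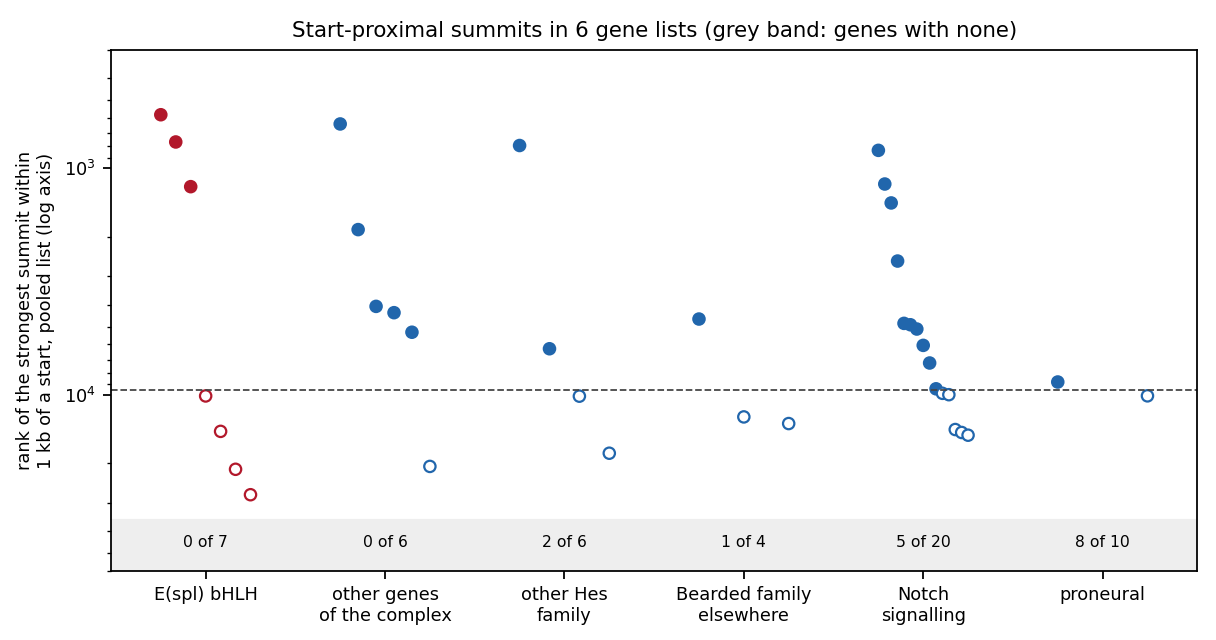
Rank of the strongest summit within 1 kb of a TSS in the pooled list (vertical log axis, strongest at the top) for genes of 6 lists, the E(spl) bHLH genes in red at the left. Filled points passed the IDR threshold (dashed line, rank 9515), and the grey band gives how many genes of each list had no such summit. The bHLH genes spread from rank 579 to rank 27692, and 8 of 10 genes of the proneural list had none, the exceptions being l(1)sc and emc.

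By rank in the 3 replicates, the proximal peaks most like that of E(spl)m7-HLH, out of 3069 genes compared outside the complex, were those of CG3009, hng3 and GILT2. The sum of absolute differences in log2 rank over the 3 replicates was 0.125 for CG3009, whose ranks were 780, 518 and 424. It was 0.21 for hng3 and 0.26 for GILT2.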

How the data were processed

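ChIP-seq peak lists of 3 biological replicates of Blimp-1-GFP embryos were used. The deposited notes give dm6 alignments, from which each replicate and the pool of all 3 were called against the same control alignment, with the IDR list derived from the 4 peak lists. Which aligner, peak caller and IDR cutoff were used is not given in the sources used here. The labels give sonication to 200 to 800 bp. The signal value of each peak is as deposited by the authors and served only to rank peaks within a list.

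Summits were read from the lists, and gene models (Ensembl release 115, pseudogenes and transposable elements left out) and sequence (RefSeq, Release 6 assembly, the same build) were joined to them with Python 3.11.15 and pandas 2.3.3. A replicate peak matched a summit within 100 bp, the strongest if several did. Distance and word search were tested on simulated data. Of 55 list names, 53 matched a gene, 5 by a later symbol. No test was made over members.

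The members and lists were chosen with earlier results of these data known. The named genes are all genes of the complex, the list genes with a proximal IDR summit, and the 3 genes most like E(spl)m7-HLH. Other list genes that are named without such a summit, as dpn, Su(H) and Delta, were chosen after their values were seen. The Su(H) words upstream of E(spl)m3-HLH are not reported here. The pairs of Su(H) words and the A and T runs were examined after the data had been seen. Alternatives were distances, thresholds, gene sets, windows and leaving out each replicate.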

Additional observations from a re-analysis of the deposited data

How the results depend on the processing

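Of 39 alternatives, 31 left the value within 1.5 times of the reported one, or, for mean ranks, within 1 SD. The 31 include all 18 that left out a replicate, but the outcome of those 18 was fixed in advance. Dropping 1 of 3 values cannot move their mean by 1 SD, and a summit matched in all 3 replicates is matched in any 2. They are therefore no check on the dependence on single replicates. The count of bHLH genes with a matched proximal summit was 3 without each replicate, and it could not differ, since the IDR list was not rebuilt. Some of the other unchanged alternatives could not differ either, so 31 of 39 overstates how far the results were checked. Using only the 5′ end of a gene changes nothing where each gene has 1 TSS. A match within 200 bp keeps every match within 100 bp, and no Blimp-1 site within 50 bp means none within 25 bp. With 2 kb in place of 1 kb, 5 of the 7 had a proximal IDR summit, beside 31.3% of all protein-coding genes, since those past E(spl)mgamma-HLH and E(spl)m8-HLH came within reach, and in the pooled list 7 had one. Of the 5 summits nearest to a bHLH gene, 1 remained with noncoding RNA genes included, and 3 summits lay within 1 kb of a bHLH TSS, an alternative added after the data had been seen. The Blimp-1 site was at 3 of the 16 summits with up to 1 mismatch, against 0 with the exact word. Whole peaks, also added later, held a Su(H) word in 2 of 16, a proneural E-box in 2 and a Hes site in 6, against 0 of each within 50 bp. The depth of the replicates is unknown, so a missing peak cannot be read as missing binding, and all 3 replicates share a control alignment.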
